A study of Mus musculus with 96 samples.

Results

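The genes described here are the Atf4 programme of mouse embryonic fibroblasts together with the cytosolic tRNA synthetases and the genes that supply amino acids. They were chosen by name from textbook membership of 4 roles, and all 41 were found among the 15895 genes of the table. There are 20 cytosolic tRNA synthetases, 7 regulators and stress effectors, 7 enzymes of amino acid and one-carbon synthesis and 7 amino acid transporters. The cells were primary fibroblasts of CF-1 embryos at day 13, for which the labels name no genetic change and no drug. All of them were kept for 36 h in medium with 0.5% fetal calf serum, which also contained glutamine and non-essential amino acids, and serum was then brought to 20% at 0 h. Polyadenylated RNA was sequenced in 2 time courses, named Cycle 1 and Cycle 2. From Cycle 1, 63 libraries up to 38 h were used, and from Cycle 2, 32 libraries up to 27 h. Each Cycle began 1 h before the addition of serum.

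Atf4 is a transcription factor whose messenger RNA is translated when the initiation factor eIF2 alpha is phosphorylated, as happens when amino acids run short or unfolded protein builds up in the endoplasmic reticulum. It is therefore controlled in large part at translation, and its messenger level need not follow its activity. With partners of the C/EBP family it binds composite elements in the promoters of genes for amino acid synthesis, amino acid import and tRNA charging, and in stress genes such as Ddit3 and Trib3. The tRNA synthetases load each amino acid on its own tRNA and are required by every growing cell.

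The element searched for in the promoters was TGATGNAA, on both strands, where an ATF site is joined to a C/EBP site. RefSeq promoter windows of build GRCm38.p6, from 250 bases before to 50 bases after the start, were matched by symbol for 31 members (not for Cars, Hars, Lars, Nars, Rars, Vars, Wars, Aldh1l2, Slc7a5 and Slc1a5), and the element was in the windows of 10 of them (32.3%). Over all 27025 genes of the same table it was in 4.51%, and over all 32851 windows in 3.97%. By role the element was found for 5 of 13 matched synthetases (Aars, Gars, Iars, Tars and Yars), 2 of 7 regulators (Trib3 and Chac1), 1 of 6 synthesis enzymes (Asns) and 2 of 5 transporters (Slc7a11 and Slc1a4). The stretches below are those of a member that rose (Slc7a11), of one that fell (Trib3), of a transporter and a stress enzyme that were lower (Slc1a4 and Chac1), and of a synthesis enzyme and 2 synthetases (Asns, Tars and Aars), so that the element can be seen beside members of all 4 roles. They are printed on the strand of the gene with the element in capitals, and the coordinates are those of an exact match in mm9, the build of the deposited values.
Slc7a11, chr3:50247568-50247627, minus strand: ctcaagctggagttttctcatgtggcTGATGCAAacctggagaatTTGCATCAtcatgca
Trib3, chr2:152169764-152169793, minus strand: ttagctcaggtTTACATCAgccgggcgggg
Chac1, chr2:119176759-119176818, plus strand: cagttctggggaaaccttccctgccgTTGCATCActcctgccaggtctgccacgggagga
Slc1a4, chr11:20232702-20232731, minus strand: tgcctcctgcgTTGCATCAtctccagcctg
Asns, chr6:7643210-7643258, minus strand: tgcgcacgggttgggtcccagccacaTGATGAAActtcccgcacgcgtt
Tars, chr15:11329414-11329454, minus strand: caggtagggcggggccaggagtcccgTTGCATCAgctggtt
Aars, chr8:113557604-113557663, plus strand: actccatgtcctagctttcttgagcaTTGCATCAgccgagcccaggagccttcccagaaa
Counted from the RefSeq start, the element of Slc7a11 lies at -66 to -59 and again, on the other strand, at -47 to -40. It lies at -193 to -186 in Chac1, at -23 to -16 in Asns and at -15 to -8 in Tars. Aars has 2 matches, the printed one at -112 to -105 and another after the start, at 10 to 17. In Slc1a4 it spans the start, at -4 to 4, and in Trib3 it lies in the first transcribed bases, at 15 to 22. A match is a description of the letters in the window, and no binding was measured here.

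The values are normalized read counts on exons, scaled by the authors so that every library has the same total, and they are not divided by gene length. Levels were therefore compared between libraries of a gene and not between genes. Under the assumption of a scaling total of 10000000, the depth was between 5072385 and 14489247 reads per library. The lowest value of any member in any library was 68.5, so no member was near the limit of detection. The 4 starved libraries (1 h before serum and 0 h, in each Cycle) were compared with 5 windows of the 29 hours that both Cycles share. The windows were 1 to 3 h (10 libraries), 4 to 8 h (10), 9 to 14 h (12), 15 to 20 h (12) and 21 to 27 h (14), and 62 libraries entered the fit. The test was limma on log2(value + 1) with the Cycle as a block. A member was called changed when the Benjamini-Hochberg adjusted p over all 15895 genes was under 0.05 and the log2 difference was above 1 in size. The labels do not say whether the Cycles came from separate cultures or embryos, and the p-values then measure only the spread between these libraries, which may be technical.

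Some libraries stood apart from their neighbours in time. Over the 9112 genes with a mean value of at least 100, the 24.5 h library of Cycle 1 had a median distance of 0.40 on the log2 scale from the 4 libraries around it, against a median of 0.091 over all libraries, and it held the highest value of 12 members in its Cycle. It is not at a shared hour and did not enter the fit. The 1 h library of Cycle 1 followed at 0.31 and held the highest value of 7 members, and the 26 h library of Cycle 1, at 0.22, held the highest value of 5. Both entered the fit. Leaving out either one changed no count of called members against starved cells. The starved libraries at 0 h already differed from those at 1 h before serum in immediate early genes: Atf3 was at 63.1 and then 1423 in Cycle 1, and at 54.4 and then 765 in Cycle 2. Summed markers of fibroblasts were between 171906 and 531590 in every library, while the summed markers of epithelial cells were at most 173, of endothelial cells at most 272, of leukocytes at most 600.3, of neural cells at most 369 and of skeletal muscle at most 1184. The part of these values in the results was not tested.

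**Figure D1:**
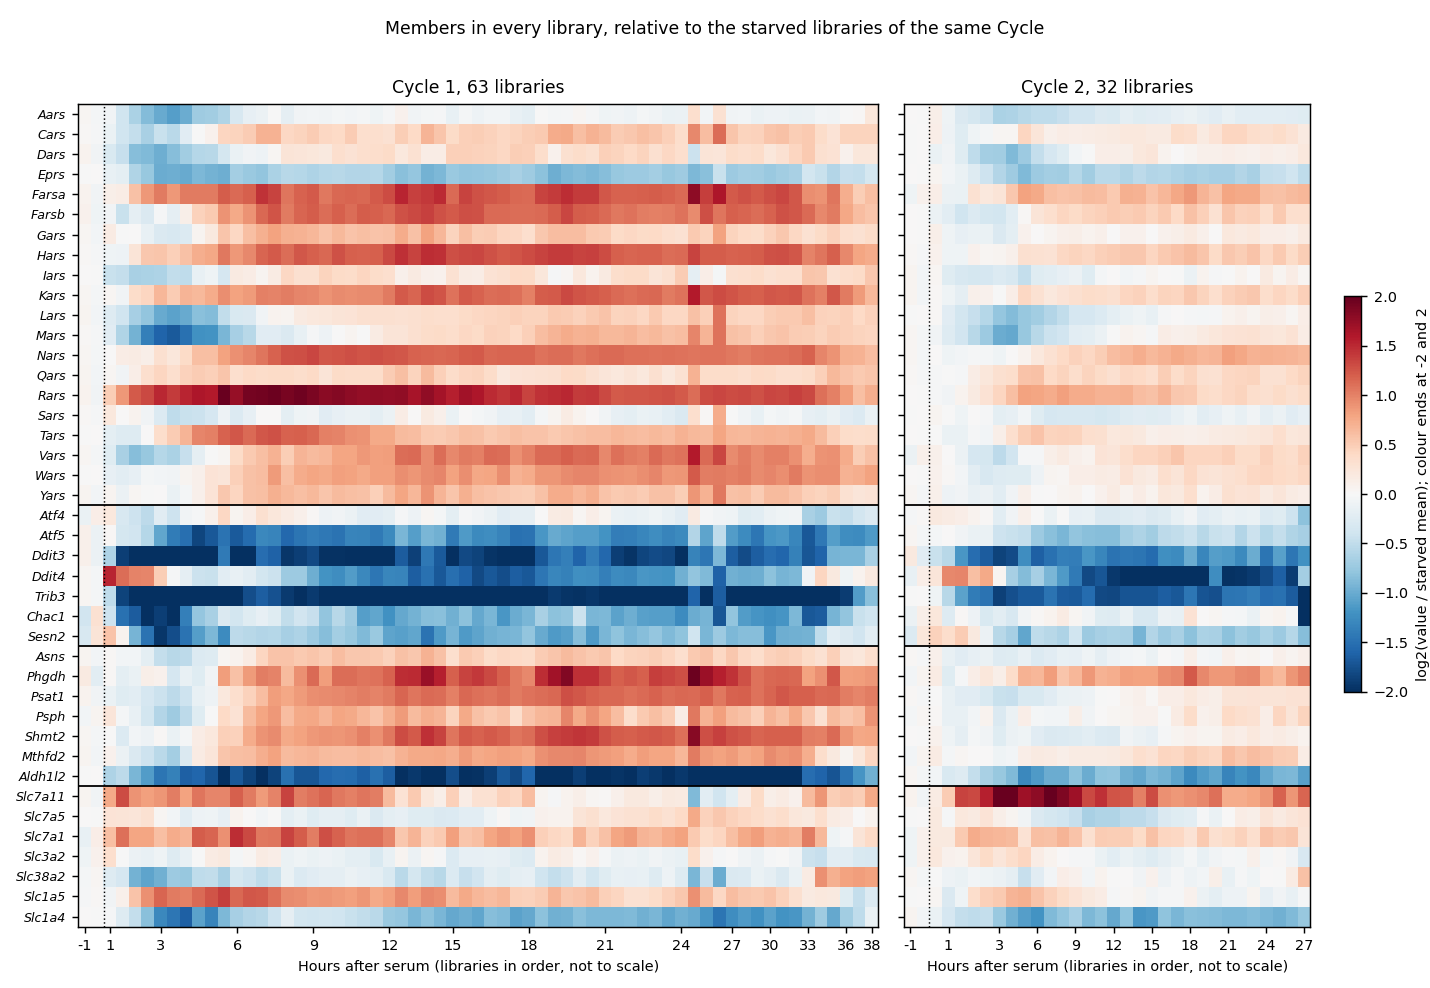
Heat maps of the 41 members (rows, in the 4 roles divided by lines) in the 63 libraries used of Cycle 1 and the 32 of Cycle 2 (columns, in order of hours after serum). Colour gives the log2 ratio of each value to its Cycle's starved mean (2 libraries), red for higher and blue for lower, and most synthetases turn red while Ddit3, Trib3, Atf5 and Aldh1l2 turn blue.

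The members moved in different directions after serum. At 1 to 3 h, 1 of 41 members was called higher, against 5.30% of all genes, and 2 were called lower, against 11.8%. By adjusted p alone, 8 were higher (14.1% of all genes) and 13 were lower (39.2%). At 4 to 8 h, 2 members were called higher (7.64%) and 4 lower (18.6%), and 12 (22.3%) and 14 (41.2%) passed the adjusted p alone. With 41 members, these called shares were under the background. Fewer cells of a kind and less RNA per cell cannot be told apart in RNA of whole cultures, here and in all that follows.

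At 9 to 14 h, 3 members were called higher (6.96% of all genes) and 4 lower (16.6%), and by adjusted p alone 20 were higher, against 24.9% of all genes, and 9 were lower, against 36.3%. At 15 to 20 h, 1 was called higher (6.80%) and 4 lower (17.1%), while 22 (26.4%) and 8 (36.9%) passed the adjusted p alone. At 21 to 27 h, 1 was called higher (6.59%) and 4 lower (19.0%), while 25 of 41 were higher by adjusted p alone (26.2%) and 9 were lower (39.5%). In any of the 5 windows, by the F test over the windows and the same size, 8 of 41 members were called, against 43.0% of all genes. Of all 15895 genes, 9112 had a mean value of at least 100, and the lowest mean of a member was 247. The background thus also holds genes at lower levels than any member. The other 33 members were not called in a window.

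The median log2 difference of the 41 members went from -0.14 at 1 to 3 h to 0.33 at 21 to 27 h, while that of all genes went from -0.26 to -0.16. Scaling by TMM moved the median of all genes to -0.05 at 1 to 3 h and -0.07 at 21 to 27 h, and that of the members to 0.08 and 0.43. The medians of the members changed sign with the scaling at 1 to 3 h and are not given as a direction there. The split of higher and lower members moved with it. Under TMM, 2 members were called higher and 2 lower at 1 to 3 h, 4 and 3 at 4 to 8 h, 5 and 4 at 9 to 14 h, and 3 and 4 in each of the last 2 windows. By adjusted p alone, 18 members were higher and 12 lower at 4 to 8 h under TMM, and 27 and 9 at 21 to 27 h.

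Between 21 to 27 h and 4 to 8 h, the comparison of late with early hours that leaves out the starved cells, 1 member (Mars) was called higher, against 6.37% of all genes, and 1 (Slc7a11) was called lower, against 9.66%. By adjusted p alone 24 were higher (34.9%) and 8 lower (28.3%). Of the synthetases, 15 of 20 were higher late than early by adjusted p and 2 were lower, Rars and Tars.

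Among the regulators, Atf4 itself, the factor that gives the programme its name, stayed near its starved level. In Cycle 1 its normalized read count was 4497 at 1 h before serum and 5398 at 0 h, and in Cycle 2 it was 5186 and 5381. After serum the lowest, median and highest values were 3439, 4984 and 5903 at 1 to 3 h, and 4717, 5246 and 6191 at 4 to 8 h. At 9 to 14 h they were 4244, 4611 and 5111, at 15 to 20 h 4249, 4550 and 5560, and at 21 to 27 h 3004, 4664 and 5162. The windows overlapped the starved libraries throughout. The fitted log2 differences lay between -0.19 and 0.05 with an SE of 0.11, and no window passed the adjusted p, the lowest being 0.11. A p that misses the threshold does not show that the level did not differ. Between late and early hours Atf4 was lower by adjusted p, at -0.24 ± 0.08 for 21 to 27 h against 4 to 8 h (limma adjusted p = 0.0073).

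Ddit3 (also called Chop), a stress factor that lies downstream of Atf4, fell in the first window and stayed low. The starved libraries held 1052 and 901 in Cycle 1, and 827 and 611 in Cycle 2. The lowest, median and highest values were 172, 240 and 634 at 1 to 3 h, and 208, 249 and 339 at 4 to 8 h. From 4 h on, every library of the 4 later windows lay below all 4 starved libraries. In the last window they were 219, 311 and 525. The log2 difference from starved was -1.61 ± 0.15 (SE) at 1 to 3 h and -1.70 ± 0.15 at 4 to 8 h (limma adjusted p = 6.3e-11 and 1.1e-11), and it was -1.42 ± 0.14 at 21 to 27 h. The difference at 4 to 8 h was -1.91 in Cycle 1 and -1.49 in Cycle 2. In the last 11 hours of Cycle 1, 28 to 38 h, which Cycle 2 does not cover, the values were between 283 and 625.

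Trib3, a pseudokinase that is a target of Atf4 and Ddit3 and restrains the programme, had the lowest fitted difference of the 41 members with both Cycles in the fit. Starved cells held 1040 and 993 in Cycle 1, and 865 and 880 in Cycle 2. After serum the lowest, median and highest values were 136, 298 and 715 at 1 to 3 h, and 145, 270 and 325 at 4 to 8 h. At 15 to 20 h they were 160, 261 and 319, and at 21 to 27 h 205, 259 and 335. No library of any window reached the lowest starved library. The log2 difference was -1.93 ± 0.16 at 4 to 8 h (limma adjusted p = 3.7e-12), a fold of 0.262, and it was between -1.71 and -1.93 in all 5 windows. With Cycle 2 alone Ddit4 was lower, at -2.01 at 15 to 20 h, against at most -1.71 in size for Trib3. Trib3 was under 0.5 of its starved level in 59 of the 61 libraries used of Cycle 1 after serum. In Cycle 1 the values of 28 to 38 h reached 569.

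Ddit4 (also called Redd1), which inhibits mTORC1 under stress, was high early and fell in the windows from 9 to 27 h. Its starved values were 649 and 615 in Cycle 1 and 1183 and 1429 in Cycle 2, so the Cycles started at different levels. The lowest, median and highest values at 1 to 3 h were 888, 1593 and 2574, and the log2 difference of 0.85 ± 0.12 passed the adjusted p (2.3e-07 by limma) without reaching the size for a call. Values were 382, 585 and 825 at 4 to 8 h, 224, 290 and 492 at 9 to 14 h and 180, 262 and 555 at 15 to 20 h. All libraries of 9 to 20 h lay below all starved ones. The log2 difference was -1.56 ± 0.11 at 9 to 14 h and -1.78 ± 0.11 at 15 to 20 h (limma adjusted p = 1.1e-14). It was -1.43 ± 0.11 at 21 to 27 h, where 1 library, at 817, overlapped the starved range. In the 11 libraries of 28 to 38 h in Cycle 1 its value was between 319 and 855. The median was 595, which is 0.940 of the starved mean of that Cycle.

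Of the other regulators, Atf5, a factor related to Atf4 that is also controlled at translation, fell at 4 to 8 h by 1.11 ± 0.14 (limma adjusted p = 1.5e-08). That call rests on Cycle 1, where the difference was -1.54, against -0.68 in Cycle 2, and it was lost under TMM at -0.95. Chac1, which degrades glutathione, was lower by adjusted p at 1 to 3 h (-0.82 ± 0.26, limma adjusted p = 0.0078) and at 21 to 27 h (-0.69 ± 0.25, 0.015). Its difference at 1 to 3 h was -1.48 in Cycle 1 and -0.16 in Cycle 2. At 21 to 27 h the median of Chac1 was 249 in Cycle 1, against a starved mean of 492. In Cycle 2 it was 315, against 320, and only the 27 h library, at 68.5, was under 0.5 of that mean. Sesn2, a leucine sensor that restrains mTORC1, was lower by adjusted p in the 4 windows from 4 h, by 0.73 to 0.80, all under the size for a call. Both were among the members whose 0 h libraries were above those of 1 h before serum, Chac1 at 379 and then 605 in Cycle 1 and 294 and then 345 in Cycle 2, and Sesn2 at 467 and then 698 in Cycle 1 and 409 and then 577 in Cycle 2. Against the 0 h libraries alone, Chac1 at 1 to 3 h (-1.05) and Sesn2 at 9 to 14 h (-1.07) were called lower. These calls rest on the raised libraries of 0 h. Against the libraries of 1 h before serum, both differences were smaller and under the size for a call.

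**Figure D2:**
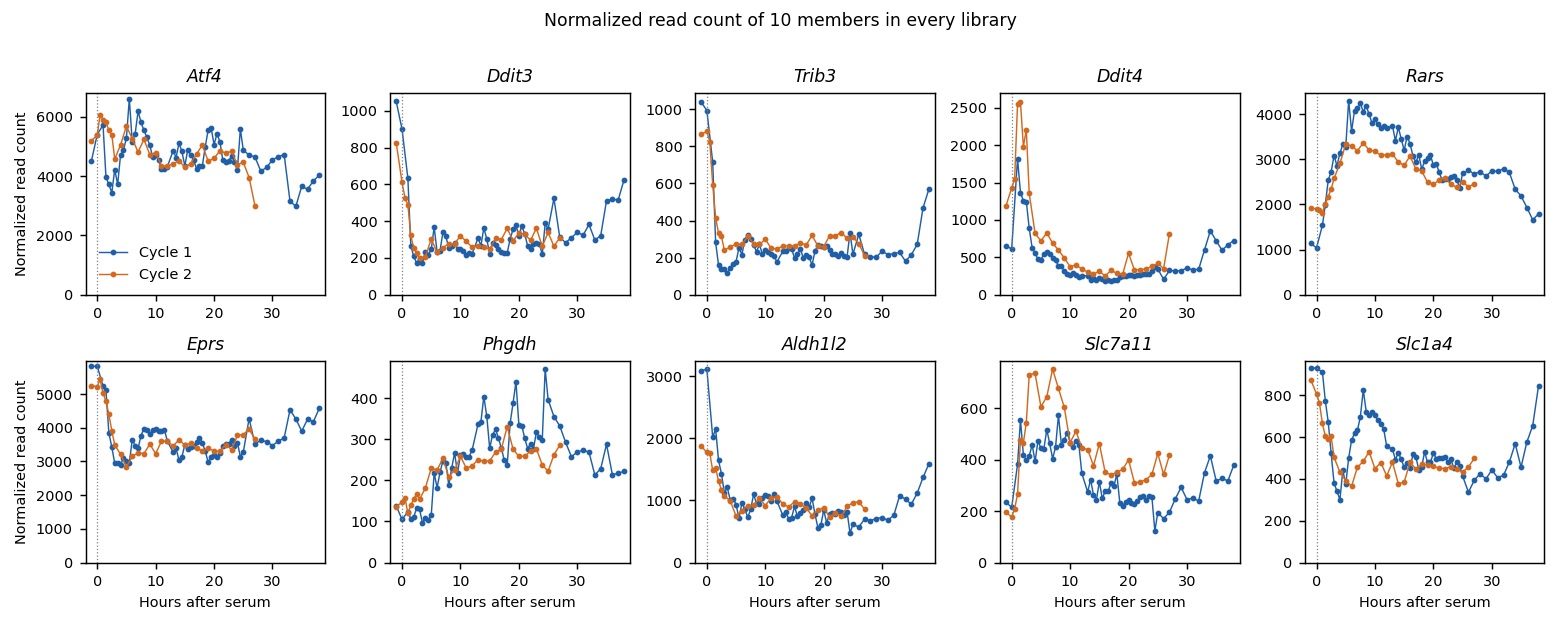
Normalized read count (vertical axis, from 0) of 10 members against hours after serum in every library of Cycle 1 (blue) and Cycle 2 (orange), with serum added at the dotted line. Trib3 falls from 865 to 1040 in starved cells to 145 to 325 at 4 to 8 h in both Cycles, while Atf4 stays between 3004 and 6191 in the 5 windows.

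Of the 20 tRNA synthetases, 16 were higher by adjusted p at 21 to 27 h, against 26.2% of all genes. In the same window 1, Eprs, was lower, against 39.5%, and Aars, Iars and Sars did not pass. The median log2 difference there was 0.47, against -0.16 for all genes and 0.05 for the genes with a mean value of at least 100. Under TMM 17 were higher and 1 was lower in that window, with a median of 0.57. At 1 to 3 h, 3 were higher by adjusted p (Farsa, Qars and Rars, against 14.1% of all genes) and 7 were lower (39.2%), with a median of -0.13. The scaling turned that split. Under TMM 6 were higher and 5 lower at 1 to 3 h, with a median of 0.10, beside 3632 higher and 4123 lower of all 15895 genes. Rars was the one synthetase called by both the adjusted p and the size in any window against starved cells.

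Rars, which charges arginine and sits in the multisynthetase complex, rose most. Its starved values were 1138 and 1039 in Cycle 1 and 1915 and 1905 in Cycle 2. At 1 to 3 h the lowest, median and highest values were 1535, 2257 and 3082, and at 4 to 8 h they were 2910, 3318 and 4139. At 9 to 14 h they were 2935, 3450 and 3998, and at 21 to 27 h 2380, 2561 and 2755. From 4 h on every library of a window lay above all 4 starved libraries, with the highest median at 9 to 14 h. The log2 difference was 1.24 ± 0.12 at 4 to 8 h and 1.25 ± 0.11 at 9 to 14 h (limma adjusted p = 4.4e-11 and 3.1e-11), and 0.83 ± 0.11 at 21 to 27 h. The rise at 9 to 14 h was 1.80 in Cycle 1 and 0.70 in Cycle 2, and with Cycle 2 alone the call was lost.

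Eprs, which charges both glutamate and proline, was lower by adjusted p in all 5 windows. It held 5823 and 5832 in the starved libraries of Cycle 1, and 5256 and 5220 in those of Cycle 2. The lowest, median and highest values were 2945, 4155 and 5238 at 1 to 3 h, and 2840, 3221 and 3972 at 4 to 8 h. Late, at 21 to 27 h, they were 3240, 3540 and 4271, and every library from 4 to 27 h lay below the starved ones. Its log2 difference was -0.77 ± 0.07 at 4 to 8 h (limma adjusted p = 2.6e-11) and -0.62 ± 0.07 at 21 to 27 h, under the size for a call in all 5 windows. The difference was of like size in both Cycles at 4 to 8 h, -0.79 and -0.74.

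For 6 synthetases the difference at 21 to 27 h was under the size for a call with both Cycles. It was above that size in Cycle 1 and further under it in Cycle 2. At 21 to 27 h the log2 difference was 0.99 ± 0.10 for Farsa and 0.78 ± 0.12 for Farsb, the subunits that charge phenylalanine, 0.90 ± 0.10 for Nars (asparagine), 0.84 ± 0.12 for Hars (histidine), 0.82 ± 0.11 for Kars (lysine) and 0.75 ± 0.16 for Vars (valine). In Cycle 1 the 6 values were between 1.09 (Nars and Vars) and 1.29 (Farsa), and in Cycle 2 they were between 0.41 (Vars) and 0.72 (Nars). For Farsa the pair was 1.29 and 0.69, for Farsb 1.13 and 0.43, and for Kars 1.19 and 0.45. Over the 61 libraries used of Cycle 1 after serum, each was over 2 times its starved mean in 25 (Vars) to 51 (Farsa) libraries. None of the 6 was over 2 times its starved mean in any of the 30 libraries of Cycle 2 after serum. Farsa was called under TMM at 1.09. Wars (tryptophan, 0.67), Cars (cysteine, 0.48), Tars (threonine, 0.45), Yars (tyrosine, 0.44), Qars (glutamine, 0.35) and Gars (glycine, 0.32) were also higher by adjusted p. Tars had its largest difference earlier, 0.76 ± 0.11 at 4 to 8 h.

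A further group dipped first. Mars, which charges methionine, also for the initiator tRNA, was lower at 1 to 3 h by 0.76 ± 0.14 and at 4 to 8 h by 0.70 ± 0.14, and higher at 21 to 27 h by 0.48 ± 0.14 on the log2 scale. Its lowest value in Cycle 1 came at 3.5 h and was 0.311 of the starved mean, and in Cycle 2 at 4 h, at 0.493. From 4 to 8 h to 21 to 27 h it rose by 1.18 ± 0.10 (limma adjusted p = 4.5e-12), by 1.48 in Cycle 1 and 0.88 in Cycle 2. Lars (leucine) went from -0.56 at 4 to 8 h to 0.33 at 21 to 27 h, and Dars (aspartate) from -0.39 to 0.23. Aars (alanine) was at -0.49 at 4 to 8 h and no longer passed the adjusted p from 9 h on, and Iars (isoleucine) and Sars (serine) did not pass it from 9 h on. Mars and Ddit3 share 68 exonic bases on opposite strands, which is 1.99% of the exonic bases of Mars. The library kit keeps the strand, but whether counting used it is not given in the sources used here. The largest such overlap among the members was that of Farsb with Sgpp2, 10.8% of its exonic bases.

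**Figure D3:**
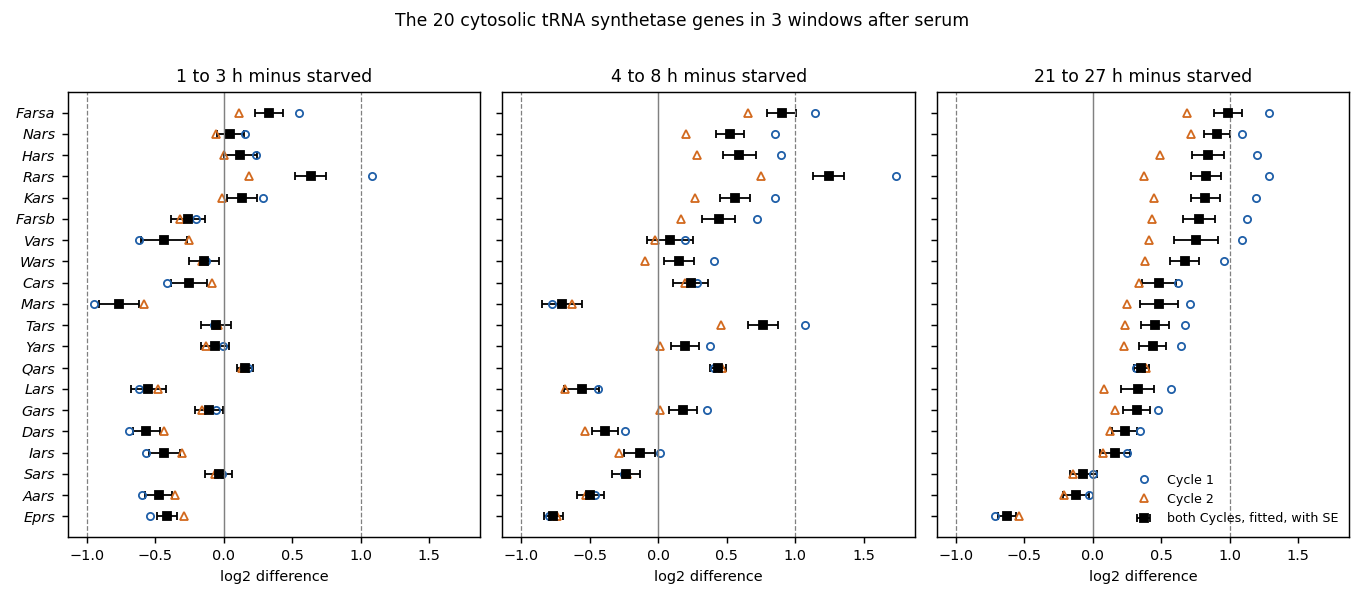
Log2 difference from starved cells (horizontal axis) of the 20 cytosolic tRNA synthetases at 1 to 3 h, 4 to 8 h and 21 to 27 h; squares with bars are the fitted difference of both Cycles with its SE, circles Cycle 1 and triangles Cycle 2, and dashed lines mark the size for a call. At 21 to 27 h, 17 of the 20 squares lie to the right of 0 and Eprs lies at -0.62.

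In the synthesis group, the enzymes of the serine pathway were higher late and Aldh1l2 was low throughout. At 21 to 27 h, 6 of the 7 members were higher by adjusted p, against 26.2% of all genes, and 1 was called lower, against 19.0%. Phgdh, which takes the first step from glycolysis to serine, rose. It held 138 and 105 in the starved libraries of Cycle 1, and 136 and 147 in those of Cycle 2. At 1 to 3 h the lowest, median and highest values were 106, 131 and 166, at 9 to 14 h 225, 257 and 404, and at 21 to 27 h 222, 287 and 397. The first window overlapped the starved libraries, and those from 9 h on lay above all of them. The log2 difference was 1.03 ± 0.16 at 9 to 14 h and 1.15 ± 0.16 at 21 to 27 h (limma adjusted p = 2.1e-07). It was 1.43 in Cycle 1 and 0.87 in Cycle 2 at 21 to 27 h, and with Cycle 2 alone the call was lost.

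Psat1 and Psph, which complete the synthesis of serine, were at 0.71 ± 0.17 and 0.45 ± 0.14 at 21 to 27 h. Shmt2 and Mthfd2, which carry one-carbon units from serine in mitochondria, were at 0.70 ± 0.21 and 0.65 ± 0.12, and Asns, which makes asparagine, was at 0.27 ± 0.12. All 5 were under the size for a call. For Shmt2 the difference was 1.25 in Cycle 1 and 0.14 in Cycle 2, and for Psat1 it was 1.14 and 0.27. The median of Asns at 21 to 27 h was 2536 in Cycle 1, against a starved mean of 1798, and 2612 in Cycle 2, against 2516.

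Aldh1l2, a mitochondrial enzyme of folate metabolism, fell. Its starved values were 3087 and 3108 in Cycle 1, and 1878 and 1770 in Cycle 2. The lowest, median and highest values were 1074, 1453 and 2147 at 1 to 3 h and 728, 927 and 1095 at 4 to 8 h. In the last window they were 570.4, 788 and 975, and from 4 h on every library of a window was below all starved ones. The log2 difference was -1.39 ± 0.15 at 4 to 8 h and -1.61 ± 0.15 at 21 to 27 h (limma adjusted p = 3.2e-11). It fell by 2.11 in Cycle 1 and by 1.10 in Cycle 2 on the log2 scale, and both Cycles ended at like levels.

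Among the transporters, Slc7a11, the cystine importer of the xCT system that feeds glutathione synthesis, rose early, and fell between early and late hours. Its starved values were 234 and 215 in Cycle 1, and 196 and 177 in Cycle 2. The lowest, median and highest values were 265, 442 and 731 at 1 to 3 h and 393, 590 and 752 at 4 to 8 h. At 9 to 14 h they were 264, 457 and 603, at 15 to 20 h 221, 343 and 463, and at 21 to 27 h 171, 283 and 424. The first 3 windows lay above all starved libraries and the last 2 overlapped them. The log2 difference was 1.14 ± 0.17, 1.45 ± 0.17 and 1.03 ± 0.16 in the first 3 windows (limma adjusted p = 6.9e-07, 4.8e-09 and 2.1e-06). From 4 to 8 h to 21 to 27 h it fell by 1.02 ± 0.12 (adjusted p = 3.9e-09 by limma), a call that was lost without the 26 h library of Cycle 1. In Cycle 1 the difference at 21 to 27 h was -0.04, and in Cycle 2 it was 0.91.

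Slc1a4, a carrier of alanine, serine and cysteine, was lower in all 5 windows by adjusted p. It held 932 and 929 in the starved libraries of Cycle 1, and 875 and 806 in those of Cycle 2. At 4 to 8 h the lowest, median and highest values were 300.2, 444 and 826, and at 21 to 27 h 336, 453 and 503. The windows from 9 h on lay below all starved libraries. Its log2 difference of -0.98 ± 0.13 at 21 to 27 h (limma adjusted p = 7.1e-08) was just under the size for a call. Slc1a5, the glutamine carrier of the same family, was higher at 4 to 8 h, at 0.84 ± 0.10 (limma adjusted p = 2.2e-08). At 21 to 27 h its fitted difference was 0.20 ± 0.10, and the Cycles lay on different sides of their starved means. The median there was 1454 in Cycle 1, against a starved mean of 1040, and 1094 in Cycle 2, against 1177.

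Slc7a1, the importer of arginine and lysine, was higher by adjusted p in all 5 windows, most at 4 to 8 h (0.86 ± 0.13). Slc7a5, which imports leucine and other large neutral amino acids, was between -0.38 ± 0.07 at 9 to 14 h and 0.28 ± 0.07 at 21 to 27 h. Slc3a2, the partner chain that Slc7a5 and Slc7a11 share, lay between -0.12 and 0.10 and did not pass the adjusted p against starved cells in any window. Slc38a2, a carrier of small neutral amino acids, was at -0.40 ± 0.13 at 1 to 3 h. It had its highest value after serum in the last library of Cycle 2, at 27 h (5769), and at 34 h in Cycle 1 (7524).

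The synthetases were at different levels in the starved cells of the Cycles. For 18 of 20 synthetases, both starved libraries of Cycle 2 lay above both of Cycle 1, against 29.5% of all genes, and for the remaining 2, Eprs and Qars, both lay below, against 38.8%. The median ratio of Cycle 2 to Cycle 1 over the synthetases was 1.18 in starved cells and 0.957 after serum, beside 0.946 and 0.971 over all genes. Rars had starved means of 1088 in Cycle 1 and 1910 in Cycle 2, and means of 3087 and 2737 after serum. Shmt2 had starved means of 1315 and 2470, and means of 2520 and 2380 after serum. Psat1 was at 2470 and 4342 in starved cells and at 4362 and 4379 after serum. Among the regulators the order was the other way for 4 of 7: Atf5, Ddit3, Trib3 and Chac1 were lower in the starved cells of Cycle 2. Atf5 had starved means of 4352 in Cycle 1 and 2699 in Cycle 2. Over the transporters the median ratio was 0.959 in starved cells and 0.947 after serum. Some members differed between Cycles more after serum than before it. The ratio of Cycle 2 to Cycle 1 went from 1.18 to 0.788 for Farsa, from 1.13 to 0.749 for Slc1a5, from 0.959 to 1.24 for Slc38a2 and from 0.858 to 1.24 for Trib3. What set the starved levels apart cannot be told apart from the Cycle, since each Cycle is 1 time course.

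The response to serum, taken as the mean over the 29 shared hours minus starved, was compared between Cycles as an interaction in limma. No member of 41 passed both the adjusted p and a difference above 1, against 5.43% of all genes. By adjusted p alone 8 members differed, against 13.6% of all genes. These were Rars (-0.97 ± 0.11, Cycle 2 minus Cycle 1), Hars, Kars, Farsb, Farsa and Nars of the synthetases, Slc1a5 of the transporters and Aldh1l2 (0.79 ± 0.23) of the enzymes. For these 8 the response had the same sign in both Cycles and was smaller in Cycle 2. The response of Aldh1l2 was -1.73 in Cycle 1 and -0.94 in Cycle 2.

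**Figure D4:**
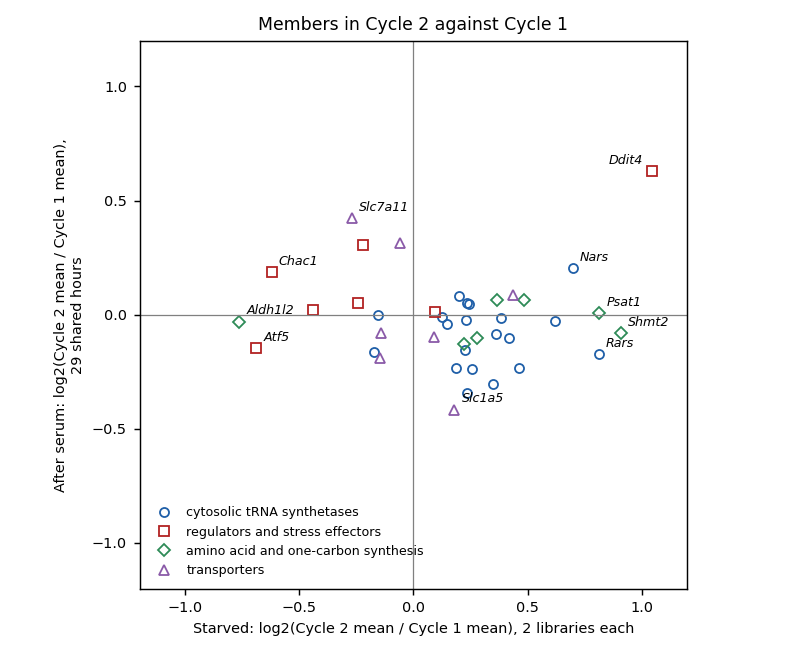
Log2 ratio of Cycle 2 to Cycle 1 for each member in starved cells (horizontal axis, means of 2 libraries each) and after serum (vertical axis, means over 29 shared hours), with the role shown by marker shape. The synthetases, circles, lie mostly to the right of 0 in starved cells and close to 0 after serum, with Rars at means of 1088 and 1910 in starved cells.

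Other genes of the pathways were counted from lists of pathway membership, by adjusted p unless a call is named. Over all genes 14.1% were higher and 39.2% lower at 1 to 3 h, and 26.2% were higher and 39.5% lower at 21 to 27 h. Of 18 mitochondrial tRNA synthetases, 14 were lower and 2 higher at 1 to 3 h, and 6 were higher, a share near that of all genes, and 2 lower at 21 to 27 h. Mars2 (1.31) and Yars2 (1.15) were called higher there. The 3 partner proteins of the multisynthetase complex were all higher by adjusted p at 21 to 27 h, with a median of 1.16, and Eef1e1 (1.38) and Aimp2 (1.16) were called. These 4 calls were lost with Cycle 2 alone, at 1.04 for Mars2 without passing the adjusted p, 0.77 for Yars2, 0.84 for Eef1e1 and 0.61 for Aimp2. That of Mars2 was also lost with Cycle 1 alone, at 1.58 without passing the adjusted p. Against the libraries of 1 h before serum it was lost too, at 0.84.

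Of 15 genes for eIF2 alpha kinases, phosphatase subunits and Atf4 partners, 1 was higher and 8 were lower by adjusted p at 21 to 27 h. The shares of all genes were 26.2% and 39.5%. Cebpb, a C/EBP partner of Atf4, was called higher at 1 to 3 h (1.34; 1.06 and not past the adjusted p with Cycle 2 alone). Atf3, a related repressor, was called lower at 21 to 27 h (-2.22), and that call rests on the raised libraries of 0 h. Its values at 21 to 27 h were 29.6, 53.5 and 69.5 (lowest, median and highest), and against the libraries of 1 h before serum the difference was -0.16 (limma adjusted p = 0.54). The same holds for Ppp1r15a (-1.10), which was at -0.03 against the libraries of 1 h before serum (limma adjusted p = 0.89). Both genes are among the 8 counted as lower. Of 18 further enzymes and targets linked to Atf4, 6 were higher and 8 lower at 21 to 27 h, shares near those of all genes. Fgf21, a hormone induced by Atf4, had the largest called fall of that list there (-4.01), from starved values of 32.1 to 89.4 to a median of 2.86. Shmt1, the cytosolic counterpart of Shmt2, was called higher (1.47), a call lost with Cycle 2 alone (0.79).

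Of 15 further amino acid transporters, 5 were higher and 6 lower at 21 to 27 h, also near the shares of all genes, and Slc1a3, a glutamate carrier (-2.70), and Slc7a2, an arginine carrier (-2.65), were called lower. Of 16 genes of amino acid sensing by mTORC1, 9 were lower at 21 to 27 h, against 39.5% of all genes. Sesn3 (-3.15) and Rragd (-1.73), a sestrin and a Rag GTPase, were called lower. Of 12 genes of the other branches of the endoplasmic reticulum stress response, 3 were higher and 4 lower at 21 to 27 h, near or under the shares of all genes. Ern1, the Ire1 sensor, was called higher at 4 to 8 h (1.53).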

How the data were processed

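RNA-seq libraries of polyadenylated RNA were made with a stranded kit. The deposited values are a signal: per the labels and methods the authors used STAR for alignment to mm9 and HOMER for exon counts, which were then brought to a common total per library. Whole reads could be recovered for 95.9% to 99.9% of low values, within 0.1 read. Rows of 12 members are averages over transcripts. Of 96 columns 1 matched no library by name and was not used, and the 1 library left without a column is of Cycle 1. Members, lists, windows and tests were chosen with earlier results of these data known. All 41 members are named, with full values for Atf4, the 3 largest rises and falls and those of each role. Values were fitted with limma 3.58.1 (R 4.3.3, trend and robust off) on log2(value + 1), as a mean per hour with the Cycle as block, and tested on simulated data. The difference between the Cycles, gene by gene, was alike only in part from hour to hour. Its median correlation over 465 pairs of hours was 0.43, with a range from -0.03 to 0.86. The labels make the number a time course. Alternatives used edgeR 4.0.16, among others.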

Additional observations from a re-analysis of the deposited data

Results flagged for a closer look

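The response to serum differed between the Cycles, by the interaction in limma at an adjusted p under 0.05, for 8 members. The difference, Cycle 2 minus Cycle 1 on the log2 scale, was -0.97 for Rars (adjusted p = 3.9e-07), -0.65 for Hars, -0.63 for Kars, -0.59 for Farsb, -0.56 for Farsa, -0.47 for Nars, -0.59 for Slc1a5 and 0.79 for Aldh1l2. None of these was above 1 in size. In the starved libraries, both of Cycle 2 lay above both of Cycle 1 for the first 7, and below them for Aldh1l2. After serum the mean of Cycle 2 was between 0.749 of that of Cycle 1 (Slc1a5) and 1.15 times it (Nars) for these 8. No member had a starved library far from the other 3 by Dixon's criterion for 4 samples. For 27 members both starved libraries of Cycle 2 lay above both of Cycle 1 (29.5% of all genes). For 9 both lay below (38.8%). The criterion looks for 1 library apart and says little about such a division by Cycle.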

How the results depend on the processing

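Each of the 41 members kept the sign of its largest difference under 21 alternatives: 16 planned, and 5 chosen after seeing the data (edgeR on recovered reads, the baseline without the libraries of 1 h before serum or of 0 h, and the fit without the 1 h or the 26 h library of Cycle 1). Of the planned ones, 1 (the adjusted p alone) is the main fit without the size, so it could change no sign and lose no call. The counts of called members depended on the size asked for and on the Cycle. With Cycle 2 alone and with Cycle 1 alone they were 0 and 4 at 1 to 3 h, 4 and 10 at 4 to 8 h, 3 and 14 at 9 to 14 h, 4 and 15 at 15 to 20 h, 3 and 16 at 21 to 27 h, 0 and 4 between late and early hours, and 4 and 19 in any window. These are also the lowest and highest counts when any Cycle or starved library was left out. Without the -1 h or the 0 h library of Cycle 2 the count at 15 to 20 h was 9 and 8, against 5. By adjusted p alone the counts were 21, 26, 29, 30 and 34 in the 5 windows, 32 between late and early hours, 39 in any window and 8 for the Cycles. The late against early count was 1 with a pseudocount of 10 1 with windows 1 h later and 1 without the 26 h library of Cycle 1, against 2. The count for the Cycles, 0, was 1 under TMM, 1 without the -1 h library of Cycle 1 (range over left-out starved libraries 0 to 1) and 1 without the libraries of 1 h before serum. Without the replicate block the number called in any window was 8, as with it, and no call of a member at its largest difference changed. Ddit3, Ddit4, Trib3, Aldh1l2 and Slc7a11 kept their calls under all 21 alternatives; Rars and Phgdh lost theirs with Cycle 2 alone, and Atf5 there, under both other scalings and without the -1 h library of Cycle 1. With Cycle 1 alone 12 more members were called at their largest difference. The causes were not tested. The lowest value of a member was 68.5, at a depth of at least 5072385 reads if the scaling total was 10000000, and the part of depth in the results was not tested.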
